A study of Rattus norvegicus with 20 samples.

Results

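The comparison described here is 10% food restriction for 1 month against no restriction, in the liver of male rats of the outbred Wistar strain. The members were chosen by sample title: 4 of the 20 arrays of the study, 2 of the 10% group and 2 of the control group. Liver RNA was measured on an Affymetrix rat expression GeneChip, a 1-colour array on which each transcript is read by sets of short probes. The whole study held 10 groups, with restriction of 0, 5, 10, 20 or 30% for 1 week or 1 month, under a title that asks how mild food restriction alters the liver's expression profile.

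The 10% group received a diet reduced by 10% from 6 weeks of age for 1 month. The control group of the same duration had no restriction. Both groups then went through a 16 h fast, so the control rats were also without food at sampling. The arrays of both groups are labelled 9 weeks, an age that the labels leave unexplained. The clock time of sampling is not given in the sources used here. Each group is 1 pool of RNA from 5 rats, run on 2 arrays. The 2 arrays of a pool are repeats of 1 RNA, so the comparison is of 1 pool with 1 pool, and no test of it was possible. The spread between arrays measures the array and not the rats.

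The liver takes up and stores nutrients after a meal and releases glucose and ketone bodies between meals. Insulin and dietary carbohydrate raise the genes of fatty acid synthesis through the transcription factors SREBP-1c and ChREBP, and falling cell cholesterol raises the genes of cholesterol synthesis through SREBP-2. PPARalpha, activated by fatty acids in fasting, raises the genes of fatty acid oxidation. The liver also holds a circadian clock, in which Bmal1 and Clock drive their own repressors, and whose phase in rodents follows the time of feeding.

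Signals are given in normalized units, after quantile normalization of the deposited intensities, and differences are 10% minus control on the log2 scale, so that 1 is a 2-fold difference. Of 15866 probe sets, the upper 60% by mean signal, 9520, were compared. A probe set was called where the means of the 2 pools differed by at least 1 on the log2 scale and both arrays of one pool lay above both of the other. Only what passed this rule of size is said to have risen or fallen. The smallest mean signal among the 9520 was 11.7 units, and where a pool lay under that floor the fold is a bound, computed with the arrays of that pool that lie under the floor raised to it, and written as at least. Each gene was read from its brightest probe set, which gave 7055 named genes.

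The arrays of the 10% pool correlated with each other at 0.957 and those of the control pool at 0.951, and the 4 pairs between the pools at 0.923 to 0.934. Arrays of the 10% pool correlated with those of the 5% pool at 0.961 on average, of the 20% pool at 0.959 and of the 30% pool at 0.949. The ratio of the 3′ to the 5′ GAPDH probe sets, a sign of RNA quality, was 1.39 and 1.5 in the 10% arrays, against 1.58 and 1.46 in the control arrays, so the groups overlapped. The 13 measured hepatocyte markers of 14 listed summed to 54040 and 54888 units in the 10% arrays, against 54145 and 53792 in the control arrays. Markers of Kupffer cells (10 of 15 measured) summed to 1011 and 1071 units in the 10% arrays, against 1116 and 1131 in the control arrays, while 7 of the 10 lay above 0 with a median difference of 0.16. Liver endothelial markers (8 of 14 measured) summed to 429 and 455 units in the 10% arrays, against 312 and 312 in the control arrays, and 6 of the 8 lay above 0 with a median difference of 0.36. No marker of any of the 11 cell type lists was called, beside 5.37% of all genes. However, 3 endothelial markers were called higher with the signals as deposited and 1 with median centring. None of the 12 neutrophil markers reached the tested signals. In such bulk RNA, fewer cells of a type and less RNA per cell cannot be told apart.

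After 1 month at 10% restriction, 308 probe sets were higher (3.24% of those tested) and 261 were lower (2.74%), together 569 or 5.98%. Counted by gene, 194 genes rose (2.75% of 7055) and 185 fell (2.62%), together 379 or 5.37%. With the signals as deposited, which set the median of all genes 0.35 higher in the 10% pool, the split was 630 higher and 121 lower. The median fold of the probe sets called was 2.57 for those higher and 2.42 for those lower. Both pools lay at or above the floor for 165 of the probe sets called higher and 156 of those called lower. Differences of 4-fold or more were seen at 55 probe sets upward and 25 downward, of which 16 and 8 had both pools at or above the floor. The 2 arrays of a single pool were themselves 2-fold or more apart at 507 probe sets (5.33%) in the 10% pool and at 630 (6.62%) in the control pool. Another 66 probe sets passed the size of the rule but had overlapping arrays and were not called.

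**Figure D1:**
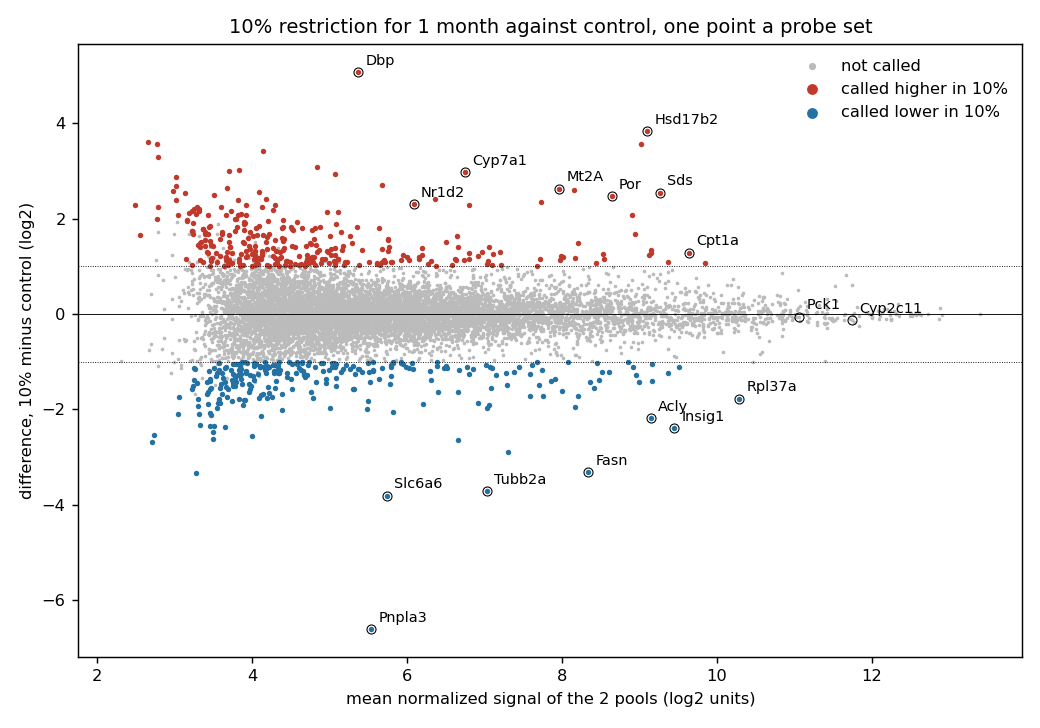
Difference between the 10% and control pools at 1 month (log2, vertical axis) against the mean normalized signal of both pools (log2 units, horizontal axis), 1 point for each of 9520 probe sets, with called probe sets in red (308, higher) and blue (261, lower) and dotted lines at a difference of 1 in each direction. Most of the calls lie at low signals, while Hsd17b2, Sds and Por above and Fasn, Insig1 and Acly below stand apart at high signals.

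The genes of fatty acid and triglyceride synthesis were lower in the 10% liver. Of 30 measured genes of the list, 11 fell and 0 rose, beside 2.62% and 2.75% of all genes. In the list 26 lay below 0, and the median difference was -0.83, against -0.003 over all 7055 genes. The members that fell were Pnpla3, Fasn, Acly, Acsl3, Pgd, Me1, Acaca, Plin2, Pklr, Elovl6 and Srebf1. Fasn, the fatty acid synthase, had 103 and 102 units in the 10% arrays, against 1052 and 995 in the control arrays, a log2 difference of -3.32 ± 0.042 (SE from 2 arrays per pool). Acly, which makes the cytosolic acetyl-CoA used by that synthase, had 248 and 285 units in the 10% arrays, against 1120 and 1320 in the control arrays (log2 difference -2.19 ± 0.155). In both genes the arrays of each pool lay close together and far from those of the other pool. The largest fall of any measured gene was that of Pnpla3, a lipid droplet protein with lipase and acyltransferase activity, which had 2.36 and 9.34 units in the 10% arrays, against 513 and 411 in the control arrays. Both 10% arrays lay under the floor, so the fold is at least 39.4-fold lower.

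Enzymes that feed the pathway with carbon and NADPH were among those that fell. Acaca, the acetyl-CoA carboxylase that makes malonyl-CoA, had 155 and 133 units in the 10% arrays, against 324 and 323 in the control arrays (log2 difference -1.17). Malic enzyme, Me1, had 152 and 134 units in the 10% arrays, against 383 and 373 in the control arrays (-1.40). Pgd, of the pentose phosphate pathway, had 91.2 and 96.5 units in the 10% arrays, against 261 and 263 in the control arrays (-1.48). The 2 groups did not overlap in any of these, as every call requires. Pklr, the liver pyruvate kinase, had 387 and 409 units in the 10% arrays, against 763 and 899 in the control arrays (-1.06). Gckr, which holds glucokinase in the nucleus, also fell, with 152 and 141 units in the 10% arrays, against 399 and 504 in the control arrays (-1.62). Me1, Acaca and Pgd were chosen after their values were seen.

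Srebf1, the gene of the transcription factor SREBP-1, had 320 and 330 units in the 10% arrays, against 670 and 643 in the control arrays, a log2 difference of -1.02 ± 0.037. It lay just past the threshold, and a second probe set of Srebf1 at -0.68 did not pass. Scd, the stearoyl-CoA desaturase, was among the brightest genes of the list, with 1918 and 1928 units in the 10% arrays, against 3760 and 3831 in the control arrays. Its difference of -0.98 ± 0.014 fell just short of the threshold, although the arrays of the 2 pools were far apart. Thrsp, the lipogenic protein Spot 14, had 2008 and 1902 units in the 10% arrays, against 2027 and 2027 in the control arrays (-0.05) and was not called.

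Genes of cholesterol synthesis were also lower in the 10% liver. All 19 measured genes of the list lay below 0, and the median difference was -0.76. Of the 19, 8 fell and 0 rose, beside 2.62% and 2.75% of all genes. The members that fell were Insig1, Dhcr7, Pmvk, Lss, Acat2, Fdps, Cyp51 and Insig2. Insig1, which holds the SREBP proteins in the endoplasmic reticulum and is itself an SREBP target, had 271 and 344 units in the 10% arrays, against 1632 and 1588 in the control arrays (log2 difference -2.40 ± 0.173). Dhcr7, which makes cholesterol from 7-dehydrocholesterol, had 75.2 and 63.4 units in the 10% arrays, against 277 and 243 in the control arrays (-1.91). Pmvk, the phosphomevalonate kinase, had 46.8 and 31.7 units in the 10% arrays, against 146 and 139 in the control arrays (-1.89). All of these lay well above the floor in both pools, with no overlap, as every call requires. Lss, the lanosterol synthase, had 41.5 and 26.4 units in the 10% arrays, against 84.6 and 100 in the control arrays (-1.48). The other 11 members were not called and ranged from -0.91 for Idi1, the isopentenyl-diphosphate isomerase, to -0.01 for Hsd17b7.

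With the signals as deposited or centred on the median, the median of all genes lay 0.35 or 0.15 higher in the 10% pool. Relative to that shift the median of the lipogenic list was -0.78 under both scalings and that of the cholesterol list was -0.71. The calls of lower signal then numbered 5 and 6 for the lipogenic list and 6 and 8 for the cholesterol list.

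Genes of the circadian clock differed in both directions. Of 15 measured genes of the list, 9 rose and 2 fell, beside 2.75% and 2.62% of all genes. The median difference was 1.33. With signals raised to the floor the median was 1.30, with 8 called higher and 2 lower. With 16 units added before log2 the median was 0.88, with 6 called higher and 1 lower. The genes that rose were Dbp, Nr1d2, Usp2, Per2, Per1, Cry2, Nr1d1, Hlf and Tef, most of which are repressors or output factors of the clock. The genes that fell were Bmal1 and Clock, which encode the activating pair. Dbp, an output transcription factor that binds the D-box, had 226 and 256 units in the 10% arrays, against 9.97 and 5.07 in the control arrays. With the control pool raised to the floor, Dbp was at least 20.6-fold higher in the 10% pool, the largest such bound upward of any measured gene. Nr1d2 and Nr1d1 encode the nuclear receptors Rev-erb beta and Rev-erb alpha, which repress Bmal1. Nr1d2 had 149 and 153 units in the 10% arrays, against 31.6 and 29.8 in the control arrays (log2 difference 2.30 ± 0.046), and its other 2 probe sets, with the control pool under the floor, were at least 6.39-fold and 1.83-fold higher. Nr1d1 had 55.7 and 73.6 units in the 10% arrays, against 17.6 and 21.6 in the control arrays (1.71 ± 0.249).

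Of the Period and Cryptochrome repressors, Per2 had 70.8 and 74.4 units in the 10% arrays, against 13.2 and 20.7 in the control arrays (log2 difference 2.13). Cry2 had 43.8 and 58.3 units in the 10% arrays, against 24.7 and 9.03 in the control arrays (1.76). The control arrays of Cry2 were far apart, and a second probe set, with the control pool under the floor, was at least 2.36-fold higher. Usp2, a ubiquitin-specific protease with a strong daily rhythm, had 219 and 276 units in the 10% arrays, against 47.0 and 54.8 in the control arrays (2.28). Hlf, a factor of the same family as Dbp, had 55.1 and 44.8 units in the 10% arrays, against 17.9 and 21.8 in the control arrays (1.33). On the falling side, Bmal1 had 8.70 and 12.4 units in the 10% arrays, against 40.7 and 43.7 in the control arrays, at least 3.51-fold lower. Clock had 30.4 and 22.4 units in the 10% arrays, against 62.2 and 62.7 in the control arrays (-1.26), while a second probe set at -0.68 was not called. Nfil3, Bhlhe40, Csnk1d and Csnk1e were not called, with differences between -0.14 and 0.53.

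Promoter sequences are shown for clock genes of both directions whose RefSeq promoter held an element of the clock, to set the element beside the change. The search covered the 300 bases from 250 before to 50 after the annotated start in assembly GRCr8, on both strands, and 10 of the 11 called clock genes had a promoter in the table. The letters searched were CACGTG for the E-box bound by Bmal1 and Clock, TTATGTAA or TTACGTAA for the D-box bound by Dbp, Hlf and Tef, and TAGGTCA for the element shared by the Rev-erb and Ror receptors. Capitals mark the match. Nr1d1 (chr10:84229405-84229704, minus strand) holds an E-box at positions -191 to -186, counted from the first transcribed base as +1. Per2 (chr9:99496944-99497243, minus strand) holds a D-box at -192 to -185, and Bmal1 (chr1:176766078-176766377, plus strand) holds the Rev-erb and Ror element at -16 to -10.
Nr1d1: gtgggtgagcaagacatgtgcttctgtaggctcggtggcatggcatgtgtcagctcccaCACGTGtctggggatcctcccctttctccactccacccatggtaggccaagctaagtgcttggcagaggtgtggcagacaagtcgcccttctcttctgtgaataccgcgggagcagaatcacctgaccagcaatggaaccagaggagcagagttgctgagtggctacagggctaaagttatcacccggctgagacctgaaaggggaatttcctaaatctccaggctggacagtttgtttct
Per2: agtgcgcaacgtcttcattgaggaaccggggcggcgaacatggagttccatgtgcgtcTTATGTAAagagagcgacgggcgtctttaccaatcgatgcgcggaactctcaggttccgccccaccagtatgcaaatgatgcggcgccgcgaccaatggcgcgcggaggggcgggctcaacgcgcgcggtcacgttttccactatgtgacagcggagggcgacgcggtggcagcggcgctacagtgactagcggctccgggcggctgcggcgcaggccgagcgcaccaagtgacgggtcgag
Bmal1: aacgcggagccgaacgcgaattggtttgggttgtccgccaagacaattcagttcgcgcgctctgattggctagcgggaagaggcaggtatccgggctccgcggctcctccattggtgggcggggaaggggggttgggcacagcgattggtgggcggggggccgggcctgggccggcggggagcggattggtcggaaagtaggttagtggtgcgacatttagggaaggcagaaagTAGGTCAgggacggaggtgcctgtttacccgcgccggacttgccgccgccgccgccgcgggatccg

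Among the 10 clock promoters the E-box was found in 2, those of Nr1d1 and Tef, against 6.42% of 33469 rat promoters. The D-box was found in 1 (1.01% of all promoters) and the Rev-erb and Ror element in 1 (2.63%). The sterol regulatory element, searched as TCACNCCAC, was found in none of the promoters of the 15 genes found in the table among the 19 called genes of fatty acid and cholesterol synthesis, against 1.12% of all promoters. A match is a description of the letters, and none of these windows was tested for binding.

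Genes of fatty acid oxidation and ketone body synthesis lay mostly above 0. Of 43 measured genes, 9 rose and 1 fell, beside 2.75% and 2.62% of all genes. In the list 35 lay above 0, and the median difference was 0.38. The members that rose were Ppara, Ech1, Vnn1, Acot4, Eci1, Crat, Cpt1a, Hacl1 and Cpt2. Cpt1a, the liver carnitine palmitoyltransferase that admits fatty acids to the mitochondrion, had 1305 and 1192 units in the 10% arrays, against 519 and 503 in the control arrays (log2 difference 1.29 ± 0.069). Its second probe set gave 2.07. Cpt2, the partner of Cpt1a on the inner membrane, had 398 and 377 units in the 10% arrays, against 171 and 164 in the control arrays (1.21). Ech1, a dienoyl-CoA isomerase, had 978 and 786 units in the 10% arrays, against 280 and 272 in the control arrays (1.67). These genes were bright in both pools and, as every call requires, their arrays did not overlap.

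Ppara, the receptor that drives many of these genes, had 19.5 and 21.9 units in the 10% arrays, against 2.55 and 4.01 in the control arrays. Both control arrays lay under the floor, which left a bound of at least 1.77-fold higher. Pdk4, the pyruvate dehydrogenase kinase that spares glucose in fasting, fell, with 35.8 and 30.8 units in the 10% arrays, against 65.7 and 68.8 in the control arrays (-1.02). Pdk4 lay just past the threshold, and with the signals as deposited or centred on the median no member of the list was called lower. Cyp4a1, a fatty acid omega-hydroxylase, had 860 and 706 units in the 10% arrays, against 551 and 512 in the control arrays (0.55) and was not called.

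**Figure D2:**
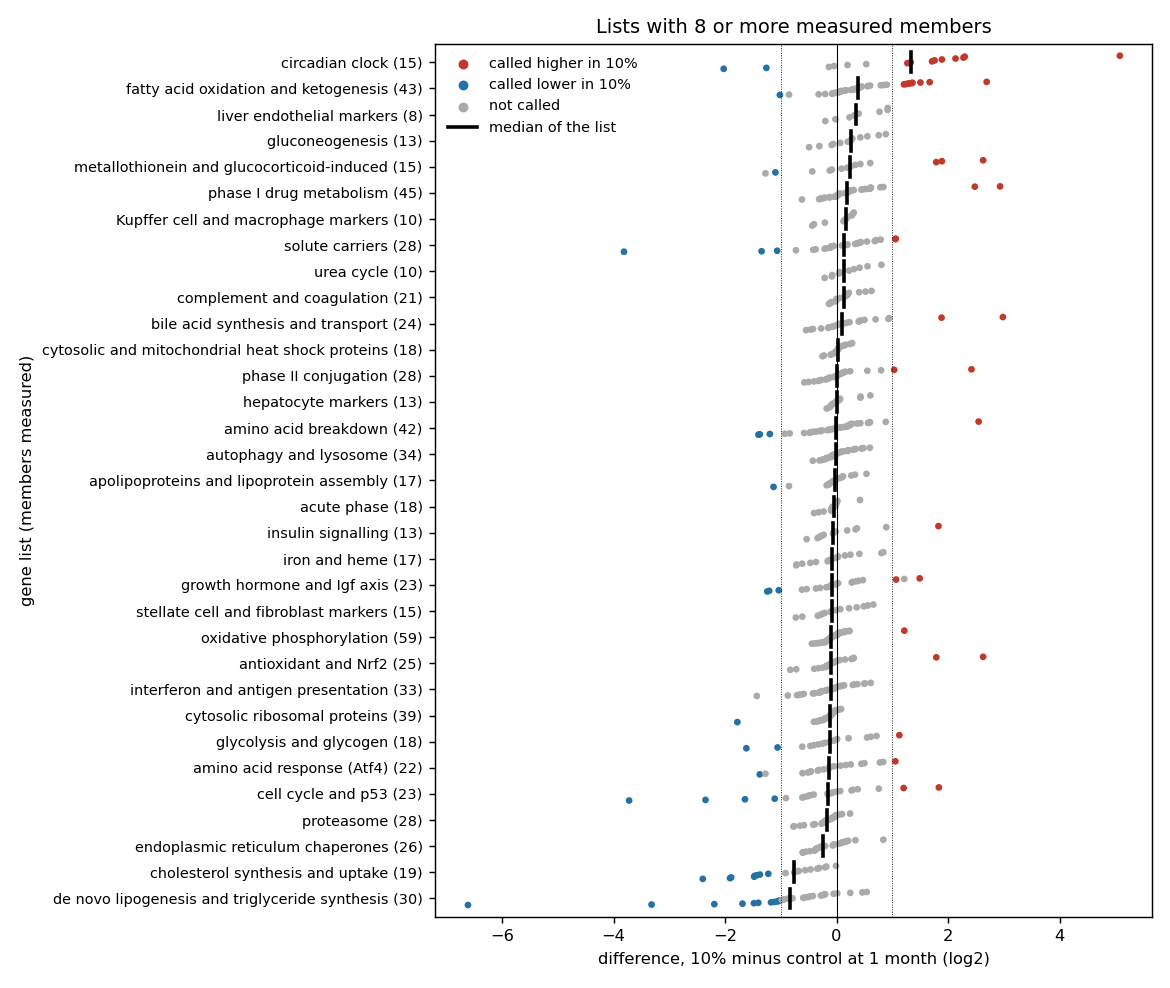
Difference of each measured gene between the 10% and control pools at 1 month (log2, horizontal axis) by gene list (vertical axis, lists with 8 or more measured members, their number in brackets), red where called higher, blue where called lower, grey where not called, with the median of the list as a black bar. The clock list has the highest median (1.33), and the lipogenic and cholesterol lists have the lowest (-0.83 and -0.76).

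The largest rise among genes measured in both pools was that of Hsd17b2, the dehydrogenase that inactivates estradiol and testosterone. It had 2150 and 2027 units in the 10% arrays, against 154 and 137 in the control arrays (log2 difference 3.84 ± 0.094). Cyp7a1, which catalyses the limiting step from cholesterol to bile acids, had 310 and 294 units in the 10% arrays, against 40.9 and 35.6 in the control arrays (2.98 ± 0.106). Abcg5, one part of the transporter that exports sterols into bile, had 67.7 and 63.0 units in the 10% arrays, against 29.9 and 10.5 in the control arrays (1.88). Cyp7a1 and Abcg5 were the only 2 of 24 measured bile acid genes that were called, beside 5.37% of all genes. With the signals as deposited 5 of the 24 were called higher, and with median centring 3. Cyp8b1, which sets the share of cholic acid, had 770 and 787 units in the 10% arrays, against 494 and 465 in the control arrays (0.70). Abcb11, the bile salt export pump, had 264 and 267 units in the 10% arrays, against 391 and 384 in the control arrays (-0.55). Cyp8b1 and Abcb11 were not called, and were chosen after their values were seen.

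Por, the reductase that passes electrons to all microsomal cytochromes P450, had 990 and 899 units in the 10% arrays, against 188 and 152 in the control arrays (log2 difference 2.48 ± 0.166), and its second probe set gave 2.59. Por and Adh4, an alcohol dehydrogenase (2.93), were the only 2 of 45 measured phase I genes that rose, a share near the 2.75% of all genes, and 0 fell. With the signals as deposited 7 were called higher. Nat8, which acetylates cysteine conjugates, had 203 and 179 units in the 10% arrays, against 30.8 and 41.2 in the control arrays (2.42). Nat8 and Sult2a6 (1.03), a sulfotransferase of steroids and bile acids, were the 2 of 28 phase II genes called, beside 5.37% of all genes. Cyp2c11, the male-specific cytochrome P450 of rat liver, had 3233 and 3323 units in the 10% arrays, against 3672 and 3497 in the control arrays (-0.13). The female-enriched Cyp2c12 had 69.5 and 46.9 units in the 10% arrays, against 76.0 and 101 in the control arrays (-0.62). Neither of these 2 genes was called.

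Metallothioneins, which bind zinc and copper and are induced by metals and glucocorticoids, were higher. Mt2A had 565 and 685 units in the 10% arrays, against 110 and 92.1 in the control arrays (log2 difference 2.63 ± 0.189). Mt1 was dim on this array, with 16.2 and 22.6 units in the 10% arrays, against 5.42 and 5.65 in the control arrays, at least 1.64-fold higher. The promoter of Mt2A (GRCr8, chr19:10838659-10838958, minus strand) is shown because it carries the metal response element of this family, with each match in capitals. Searched as TGCACNC or TGCGCNC on both strands, the element is found at 4 places in it, at -220, -165, -111 and -55. The element is short, and 24.2% of all 33469 promoters hold it.
Mt2A: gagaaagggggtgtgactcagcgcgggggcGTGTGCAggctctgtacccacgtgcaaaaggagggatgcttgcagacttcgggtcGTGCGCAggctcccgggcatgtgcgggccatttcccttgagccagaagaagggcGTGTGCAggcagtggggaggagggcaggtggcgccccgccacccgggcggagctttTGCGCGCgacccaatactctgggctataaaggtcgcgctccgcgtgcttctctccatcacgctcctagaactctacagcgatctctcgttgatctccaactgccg

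In amino acid metabolism, Sds, the serine dehydratase that turns serine into pyruvate, had 1441 and 1531 units in the 10% arrays, against 272 and 237 in the control arrays (log2 difference 2.55 ± 0.108). It was the only riser of 42 measured genes of amino acid breakdown, near the 2.75% of all genes that rose. Of the 42, 3 fell, beside 2.62% of all genes. Kynu, the kynureninase of tryptophan breakdown, had 376 and 332 units in the 10% arrays, against 880 and 987 in the control arrays (-1.40). Cth, which makes cysteine from cystathionine, had 219 and 225 units in the 10% arrays, against 565 and 588 in the control arrays (-1.38). Acmsd, which diverts the tryptophan pathway away from NAD, fell too, with a difference of -1.20. Slc6a6, the taurine transporter, had 17.8 and 11.4 units in the 10% arrays, against 196 and 205 in the control arrays (-3.81 ± 0.324). It was the largest fall among genes with both pools at or above the floor. None of 13 gluconeogenic genes was called (median 0.26), and none of 10 genes of the urea cycle (median 0.14). Beside the 5.37% of all genes called, lists this short would hold few calls. Pck1, the gluconeogenic phosphoenolpyruvate carboxykinase, had 2086 and 2123 units in the 10% arrays, against 2241 and 2140 in the control arrays (-0.06).

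**Figure D3:**
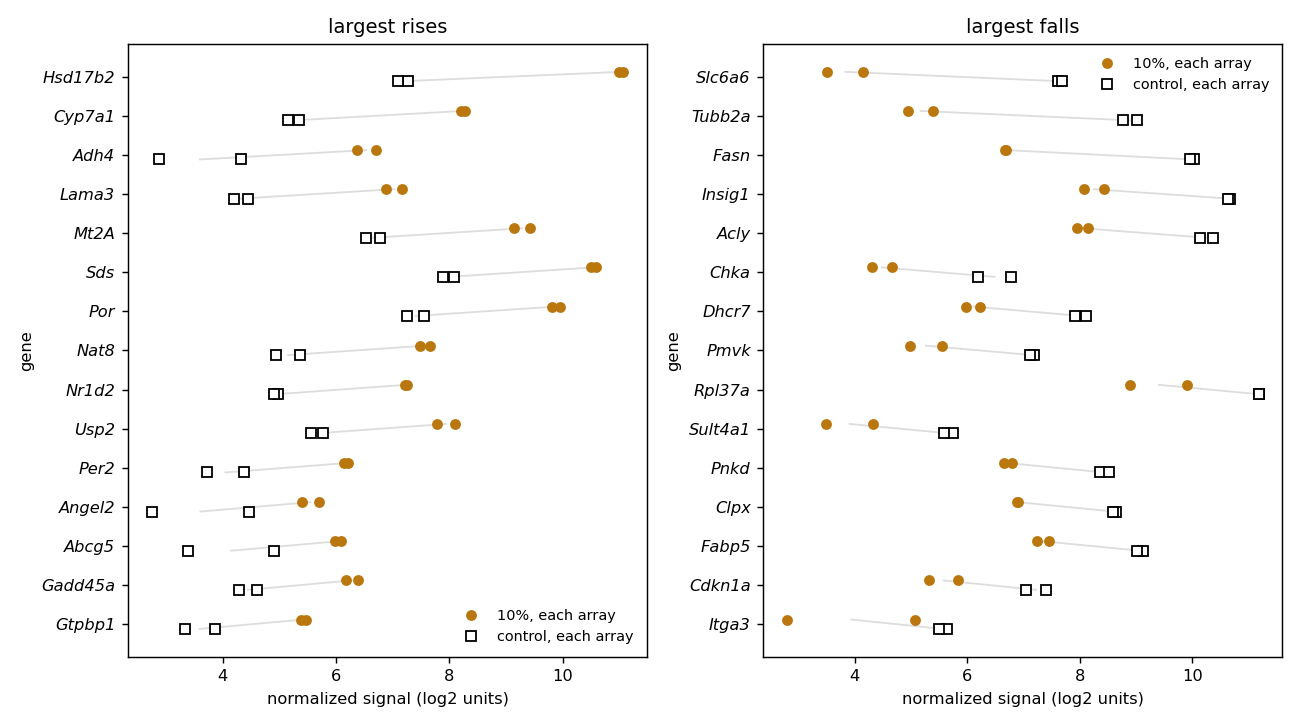
Normalized signal of each array (log2 units, horizontal axis) for the 15 largest rises (left panel) and the 15 largest falls (right panel) among genes with both pools at or above the floor, with filled circles for the 2 arrays of the 10% pool drawn above open squares for the 2 arrays of the control pool. The largest gaps are those of Hsd17b2 (3.84) upward and Slc6a6 (-3.81) downward, while the arrays of one pool lie far apart for Adh4, Angel2 and Abcg5 in the control and for Itga3 and Rpl37a in the 10% pool.

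Among growth and cell cycle genes, Cdkn1a, the cyclin-dependent kinase inhibitor p21, had 39.9 and 57.3 units in the 10% arrays, against 132 and 169 in the control arrays (log2 difference -1.64), with -1.82 at a second probe set. Gadd45a, a stress-induced gene of growth arrest, had 83.4 and 72.0 units in the 10% arrays, against 24.2 and 19.5 in the control arrays (1.83). Tubb2a, a beta tubulin, had 42.2 and 30.8 units in the 10% arrays, against 435 and 519 in the control arrays (-3.72 ± 0.260). Of 23 measured cell cycle and p53 genes, 2 rose (Gadd45a and Mdm2), beside 2.75% of all genes. Another 4 fell (Cdkn1a, Tubb2a, Ccnb1 and Ccnb2), beside 2.62% of all genes, so the list moved in both directions. In the growth hormone axis, 2 of 23 genes rose (Cish and Igfbp4) and 3 fell (Socs2, Stat5a and Stat5b), beside 2.75% and 2.62% of all genes. With the signals as deposited 3 were called higher and 0 lower. Igf1, the liver's secreted growth factor, had 1659 and 2344 units in the 10% arrays, against 2086 and 2099 in the control arrays (-0.09), so the groups overlapped. Irs2, an insulin receptor substrate, had 33.9 and 46.7 units in the 10% arrays, against 23.0 and 5.46 in the control arrays, at least 2.43-fold higher.

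The remaining large changes were spread over several functions. Lama3, a laminin chain of basement membranes, had 118 and 143 units in the 10% arrays, against 21.7 and 18.4 in the control arrays (log2 difference 2.71). Chka, the choline kinase that starts phosphatidylcholine synthesis, had 19.9 and 25.3 units in the 10% arrays, against 73.0 and 110 in the control arrays (-2.0). Fabp5, a fatty acid binding protein, had 151 and 176 units in the 10% arrays, against 556 and 518 in the control arrays (-1.72). These 3 genes did not overlap between the pools, as every call requires. Clpx, a chaperone subunit of the mitochondrial Clp protease, differed by -1.72 and Pnkd by -1.72, although a second probe set of Pnkd gave -0.26. Sult4a1, an orphan sulfotransferase, differed by -1.76 and Itga3, an integrin subunit, by -1.63. Upward, Angel2 differed by 1.94 and Gtpbp1, a GTP-binding protein, by 1.83, although a second probe set of Gtpbp1 gave 0.38.

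Where 1 pool lay under the floor, the largest bounds upward after Dbp were those of Klf16, a zinc finger transcription factor (at least 4.94-fold higher), and Sult5a1 (3.58-fold), followed by Ablim3 (3.16-fold), Pla2g12a (3.15-fold) and Rabepk (2.94-fold). Downward after Pnpla3 and Bmal1 came Acsl3, which activates long-chain fatty acids (at least 2.71-fold lower), Rab20 (2.69-fold), Flnc (2.63-fold) and Cryaa (2.48-fold).

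Several groups of genes held 0 calls with quantile normalization, beside 5.37% of all genes called. At that share lists of these sizes would hold few calls. None was called among 17 genes of iron and heme (median -0.08), 18 acute phase genes (-0.05), 21 of complement and coagulation (0.13), 26 endoplasmic reticulum chaperones (-0.24), 18 heat shock proteins (0.02), 33 of interferon response and antigen presentation (-0.11), 28 of the proteasome (-0.17) and 34 of autophagy and the lysosome (-0.01). On the deposited scale 2 iron and heme genes, 1 complement gene and 1 chaperone were called higher, as were 2 gluconeogenic genes and 1 gene of the urea cycle. Of the proteasome genes 25 of 28 lay below 0, and of 39 cytosolic ribosomal protein genes 36 lay below 0, with medians of -0.17 and -0.12. These directions turned with the scaling, since median centring gave 0.03 and 0.08, and the deposited scale gave 0.24 and 0.28. Relative to the shift of all genes they were -0.11 and -0.07 under both. Of 59 genes of oxidative phosphorylation only Cox5a was called, with 29.0 and 47.4 units in the 10% arrays, against 21.5 and 11.8 in the control arrays (1.22). Hspa5, the main chaperone of the endoplasmic reticulum, had 819 and 727 units in the 10% arrays, against 1129 and 1025 in the control arrays (-0.48), and was not called. Hamp, the iron hormone hepcidin, had 1519 and 1612 units in the 10% arrays, against 2306 and 2039 in the control arrays (-0.47).

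The 10% level was also measured after 1 week, in a separate pair of pools that share no RNA with those at 1 month. The rats of these pools also went through a 16 h fast. The 1 week arrays are labelled 6 weeks and the 1 month arrays 9 weeks, so duration and labelled age cannot be told apart. At 1 week, 212 probe sets were higher (2.23%) and 132 lower (1.39%), together 3.61% of those tested. By gene, 150 were higher (2.13%) and 93 lower (1.32%). Of the 308 probe sets called higher at 1 month, 70 were also called higher at 1 week, which is 22.7% of the 1 month calls and 33.0% of the 1 week calls, against the 2.23% of all probe sets called so. Of the 261 called lower at 1 month, 52 were also called lower at 1 week, 19.9% of the 1 month calls and 39.4% of the 1 week calls, against 1.39% of all. Together 122 of 569 calls, or 21.4%, were called the same way (95% exact binomial interval 18.1 to 25%, which treats probe sets as independent and covers counting error only). At 1 week, 222 of the 308 lay above 0 and 178 of the 261 lay below 0.

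The share also called at 1 week differed with signal. With both pools at or above the floor at 1 month, 51 of 165 higher calls (30.9%) and 44 of 156 lower calls (28.2%) were also called at 1 week, against 1.84% and 1.29% of the probe sets at that level. With 1 pool or both under the floor, 19 of 143 higher calls (13.3%) and 8 of 105 lower calls (7.62%) were, against 7.08% and 2.55%. The difference between the levels of signal was not tested.

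The leading genes of the clock and of lipid synthesis were called at both durations. Dbp was at least 20.6-fold higher at 1 month and at least 25.4-fold higher at 1 week, and Bmal1 at least 3.51-fold and 3.85-fold lower, bounds whose sizes cannot be compared. Nr1d2 had a log2 difference of 2.30 at 1 month and 2.22 at 1 week. Fasn had -3.32 at 1 month and -2.20 at 1 week, Acly -2.19 and -1.71, and Slc6a6 -3.81 and -3.40. Hsd17b2 had 3.84 at 1 month and 4.48 at 1 week, Mt2A 2.63 and 3.36, and Cyp7a1 2.98 and 1.57. By list, the median of cholesterol synthesis was -0.76 at 1 month and -0.37 at 1 week, and that of lipogenesis was -0.83 and -0.64. The clock list had 1.33 at 1 month and 0.44 at 1 week, and fatty acid oxidation 0.38 and 0.27.

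Other genes were called at 1 of the durations only, and differences between the durations were not tested. Sds had 2.55 at 1 month and 0.70 at 1 week, Lama3 had 2.71 and 0.96, and Kynu had -1.40 and -0.43. Per1 was at least 2.46-fold higher at 1 month and had a difference of -0.40 at 1 week. In the other direction, Hamp had -0.47 at 1 month and -1.87 at 1 week, and Cyp2c12 had -0.62 and -2.70, both called at 1 week alone. Cdkn1a, called at both, had -1.64 at 1 month and was at least 11.9-fold lower at 1 week, where the 10% pool lay under the floor.

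**Figure D4:**
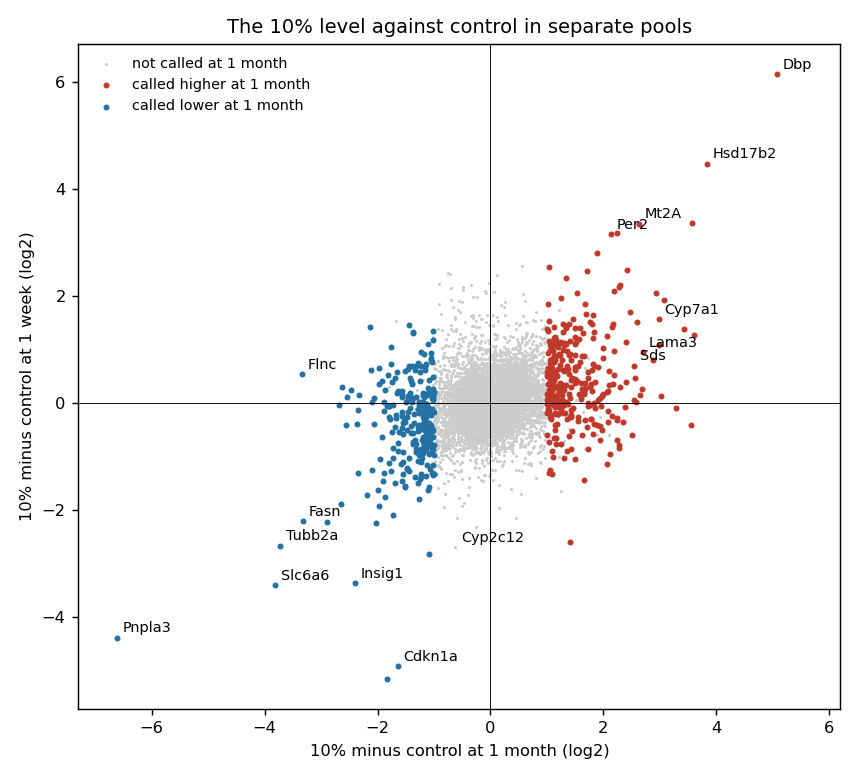
Difference between 10% restriction and control at 1 month (log2, horizontal axis) and at 1 week (log2, vertical axis), in separate pools, 1 point for each of 9520 probe sets, red where called higher and blue where called lower at 1 month. Dbp, Hsd17b2 and Mt2A lie far out at upper right and Pnpla3, Slc6a6, Tubb2a and Fasn at lower left, while many other called points lie near 0 at 1 week.

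The main test with p-values set the 10% level against none over both durations. It was a limma fit to the means of all 10 pools with diet level and duration as factors. It averages the durations, takes its error from how far pools depart from the fit, and is not a test of the 1 month pool alone. In it 206 probe sets passed a Benjamini-Hochberg adjusted p of 0.05 (2.16%), 125 higher (1.31%) and 81 lower (0.851%). All of these passes rest on the variance trend, since limma without it left 0 probe sets past the threshold and 1222 with an unadjusted p under 0.05. Of the 569 calls at 1 month, 114 were among the 206 with the same sign, or 20.0%. The fit includes the 1 month pools that define the calls. This overlap and the adjusted p of genes named for their 1 month differences are therefore not separate support for those calls. Hsd17b2 and Cpt1a had the smallest adjusted p of the named genes, 0.000959 each in limma. Fasn had a limma adjusted p of 0.0151, Acly 0.005, Insig1 0.00772, Srebf1 0.0121 and Slc6a6 0.00722. Dbp, Nr1d2 and Cry2 had 0.005 in limma, Per2 0.00676, Nr1d1 0.00742 and Clock 0.0454, while Bmal1 at 0.255 did not pass. Cyp7a1 had a limma adjusted p of 0.021, Mt2A 0.0101, Por 0.011 and Sds 0.0483. Scd at 0.1, Lama3 at 0.0644, Kynu at 0.23 and Rpl37a at 0.103 did not pass in limma. By list, 11 of 30 lipogenic genes passed downward and 6 of 19 cholesterol genes, while 11 of 43 oxidation genes, 8 of 45 phase I genes and 6 of 15 clock genes passed upward.

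The other restricted groups of 1 month were compared with the same control pool, so their differences from control are not independent of the one described here. Their pool means (means on the log2 scale, in units) are given beside that of the 10% pool, in order of restriction. Fasn stood at 262 at 5%, 102 at 10%, 143 at 20% and 74.2 at 30%, against 1023 in the control. Acly stood at 409, 266, 284 and 219 in that order, against 1216 in the control. Insig1 was lowest at 5%, with 154, 305, 464 and 429 units in that order, against 1610 in the control. Dbp stood at 278 at 5%, 241 at 10%, 172 at 20% and 33.5 at 30%, against 7.11 in the control. Nr1d1 stood at 68.4, 64.0, 24.3 and 13.1 in that order, against 19.5 in the control, and Bmal1 at 3.50, 10.4, 13.7 and 29.3, against 42.2. Among the restricted pools, Dbp and Bmal1 lay nearest to the control at 30%, and Nr1d1 crossed it between 20 and 30%. Nr1d2 also lay nearest at 30%, with 167, 151, 133 and 82.6 units, against 30.7 in the control. Other clock genes differed less between the restricted pools. Per2 stood at 70.3, 72.6, 82.8 and 76.2 in order of restriction, against 16.5 in the control. Cry2 stood at 53.6, 50.5, 48.3 and 43.3, against 14.9, and Usp2 at 188, 246, 206 and 186, against 50.8. Cyp7a1 stood at 247, 302, 247 and 192 units in order of restriction, against 38.2 in the control, and Sds at 795, 1485, 1185 and 1037, against 254.

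**Figure D5:**
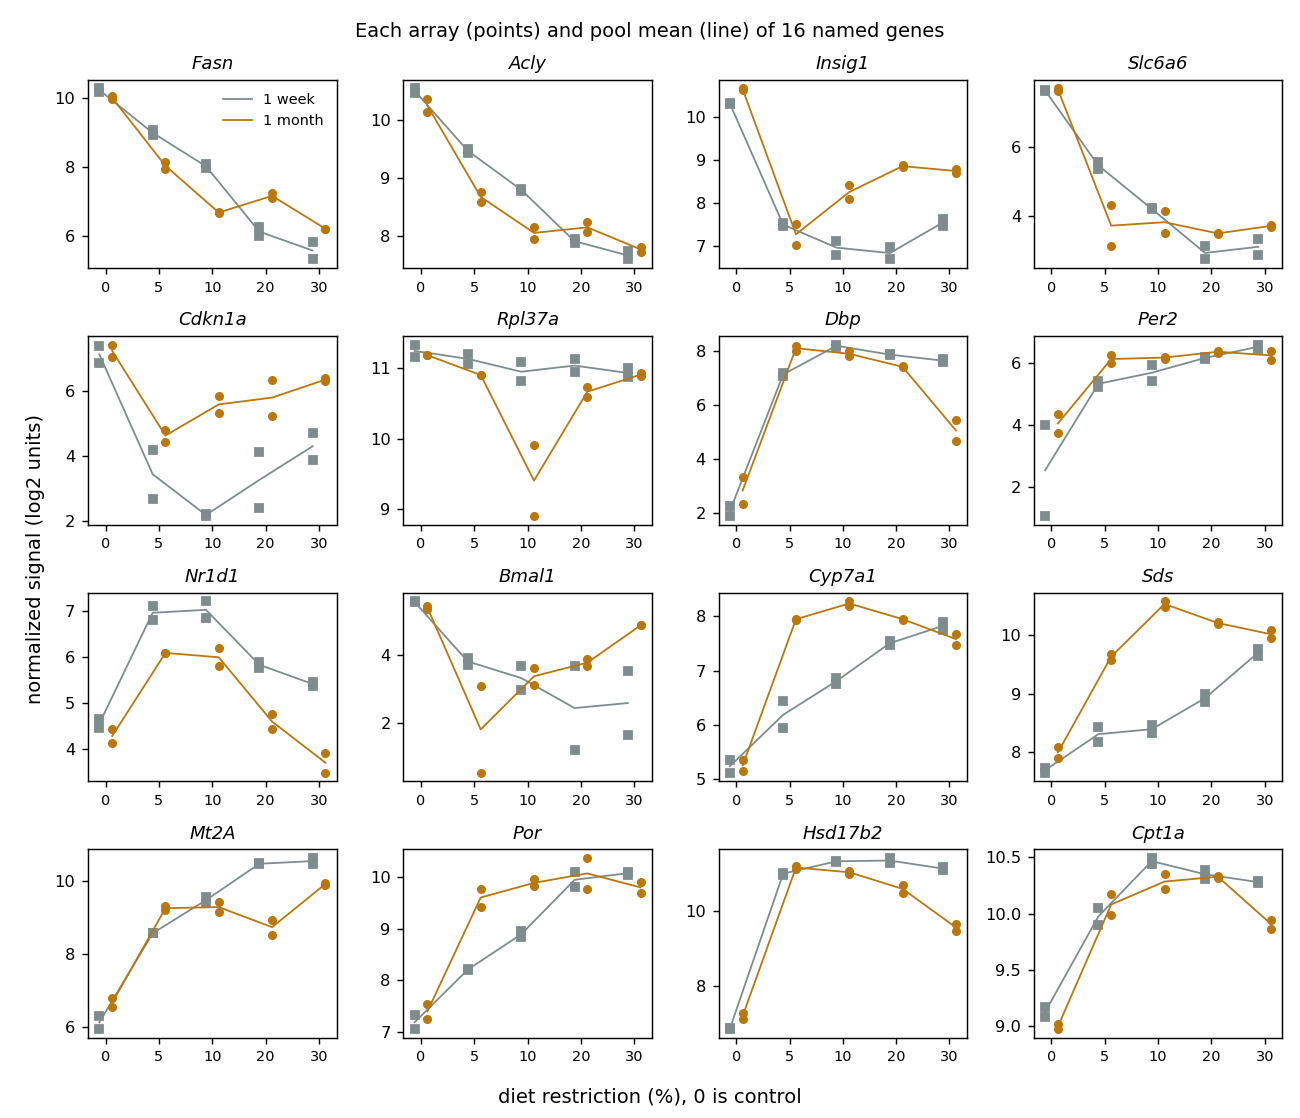
Normalized signal (log2 units, vertical axes) of 16 named genes against diet restriction (0 to 30%, horizontal axes, where 0 is control), at 1 week (grey squares) and 1 month (orange circles), with each array as a point and the pool mean as a line. At 1 month Fasn, Acly and Slc6a6 are low in every restricted pool, Dbp, Nr1d1 and Hsd17b2 lie closer to the control at 30% than at 10%, and Rpl37a is low at 10% alone.

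Few probe sets set the 10% pool apart from the other restricted pools of its duration. At 25 probe sets (0.263%) both of its arrays lay above or below all 6 arrays of the other pools with its mean 2-fold or more from the nearest, 4 of them higher and 21 lower. The same count was 34 for the 5% pool, 15 for the 20% pool and 48 for the 30% pool. Of the 25, 19 were also called against the control, beside 5.98% of all probe sets. Both rules use the same 2 arrays of the 10% pool, so the 19 are not separate support. Rpl37a, a protein of the large ribosomal subunit, was the bright one among them, with 478 and 960 units in the 10% arrays, against 2325 and 2325 in the control arrays. Its pool means were 1913 at 5%, 1623 at 20% and 1920 at 30%, and the other 38 measured ribosomal protein genes were not called. The 10% arrays of Rpl37a were themselves 2-fold apart. Rph3al, a Rab effector of secretion, was higher, with 40.6 and 53 units in the 10% arrays, against 14.7 and 22.7 in the control arrays, and 16.7, 16.2 and 13.9 units in the 5, 20 and 30% pools. Nelfe, a subunit of a complex that pauses transcription, had 24.2 and 21.4 units in the 10% arrays, against 21.1 and 22.0 in the control arrays, and 7.70, 10.9 and 9.36 units in the 5, 20 and 30% pools. Arhgef10, Ascc2, Art1, Cnot7, Cstdc1 and LOC100912002 were lower than in the other restricted pools, all with the 10% pool under the floor. The count of 25 depended on the setting: it was 5 with signals raised to the floor, 1 among the upper 40% of signals, 294 without a filter, 75 at 1.5-fold, and 174 and 62 without the first and the second 10% array.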

How the data were processed

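Liver RNA pools of male Wistar rats were measured on Affymetrix arrays. The deposited files give 1 linear intensity for each probe set, and MAS5 is the tool that the submitters' processing notes name. MAS5's version, scaling target and detection calls were not given in the sources used here or were not used. Arrays differed in overall brightness as deposited, and the 2% trimmed mean was 68.7 and 68.9 units in the 10% arrays of 1 month, against 43.1 and 64.7 in its control arrays, and ran from 38.8 to 99.6 over the 20 arrays. The number of arrays limits the precision.

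Zeros (32 values) took the lowest positive value on the same array, values were turned to log2, 57 control probe sets were left out, and the 20 arrays were quantile-normalized. Of the 9520 tested probe sets, 8120 had 1 gene in the platform annotation, 245 several and 1155 none, and only those with 1 gene were named. Comparison with the RefSeq gene table of GRCr8 changed 0 symbols. Array means on the log2 scale represent a pool. With 1 pool a group, calls rest on size, as a log2 difference of at least 1 with arrays that do not overlap. The fit over both durations used limma 3.58.1 in R 4.3.3 on 10 pool means (lmFit, eBayes with a trend, two-sided, Benjamini-Hochberg adjustment over 9520 probe sets, threshold 0.05). The scripts were tested on simulated data. Promoters came from a RefSeq table.

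The members, the 40 gene lists and the genes named were chosen with earlier results of these data known. The genes named were the 15 largest rises and 15 largest falls with both pools at or above the floor, the 6 largest bounds each way, up to 4 called members of each list, up to 6 genes each way that set the 10% pool apart, and a fixed set of 52 genes, of which 40 were measured. Every other called member of a described list is named too, and these were chosen after their values were seen. Other scalings, signal filters, floors, sizes and arrays left out were tried as alternatives.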

Additional observations from a re-analysis of the deposited data

Results flagged for a closer look

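At 10 probe sets the 10% pool was called in one direction against control at 1 month and in the opposite direction at 1 week, so that both arrays of each 10% pool moved against those of the other duration. Of the 308 called higher at 1 month, 5 were called lower at 1 week, beside 1.39% of all probe sets. Of the 261 called lower, 5 were called higher at 1 week, beside 2.23% of all. Both counts are near the share of all probe sets. The difference between the durations was not tested, and the 10 make up a small share of the 569 calls at 1 month. In 8 of the 10 a pool of 1 month lay under the floor. The 2 with both pools of 1 month at or above it were dim as well. They are probe sets of Ap3d1 and Drosha, and neither is the brightest probe set of its gene. The brightest probe sets of these genes were not called in opposite directions. Ap3d1, a subunit of the AP-3 adaptor complex, had 28.6 and 50.7 units in the 10% arrays at 1 month, against 13.4 and 15.5 in its control arrays, and 1.45 and 15.7 units in the 10% arrays at 1 week, against 23.2 and 36.1 in its control arrays. Drosha, the nuclease that starts microRNA processing, had 11.6 and 11.8 units in the 10% arrays at 1 month, against 20.5 and 30.8 in its control arrays, and 17.3 and 17.9 units in the 10% arrays at 1 week, against 12.9 and 5.10 in its control arrays.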

How the results depend on the processing

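The size rule gave 308 probe sets higher and 261 lower. Without the first 10% array the balance turned, with 386 higher and 440 lower. None of the called differences of named genes changed direction under the alternatives run. Small medians of lists did: as deposited, where all genes shift by 0.35, those of the proteasome, ribosomal proteins, endoplasmic reticulum chaperones and interferon genes were 0.24, 0.28, 0.19 and 0.21. Signals as deposited gave 630 higher and 121 lower, no filter on low signals 1030 and 1016, the upper 40% of signals 129 and 102, and 16 units added before log2 78 and 63. Signals raised to the floor gave 207 higher and 172 lower, a log2 size of 1.5 gave 125 and 86, and a size of 1.5-fold in place of 2-fold gave 852 and 728. Leaving out 1 array gave 386 to 459 higher and 334 to 440 lower, the 440 without the first 10% array, since a lone array drops the overlap rule in part. Of the 569 calls, 422 were called the same way with signals as deposited, 379 with the floor and 141 with 16 units added. The share called the same way at 1 week, 21.4%, was 26.4% as deposited, 14.7% without a filter, 33.3% in the upper 40%, 25.6% with the floor, 37.6% with 16 units added and 25.4% at a size of 1.5-fold, and ran from 14.8 to 23.9% with 1 array left out. The 25 probe sets that set the 10% pool apart became 294 without a filter, 1 in the upper 40%, 5 with the floor, 1 with 16 units added, 7 at a log2 size of 1.5 and 75 at 1.5-fold, and ran from 26 to 174 with 1 array left out, with 174 and 62 without the first and the second 10% array. The limma count over both durations, 206, was 371 as deposited, 320 with only the 4 pools of 10% and control, and 112 to 168 from arrays of 1 number alone, 112 without the arrays numbered 2. It was 0 with eBayes without a trend, where 1222 probe sets had an unadjusted p under 0.05. Of 81 called named genes, 68 were called the same way as deposited, 50 with 16 units added, and 73 to 78 with 1 array left out. No paired analysis was possible because each condition is 1 pool and the array numbers only count technical repeats of it.

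Each condition is 1 pool of 5 rats, so differences between rats, cages or days of sampling and the effect of diet cannot be told apart here. Signal limits the calls: probe sets whose pool mean lay under 11.7 units were 2-fold or more apart between the 2 arrays at 53% in the 10% pool and 47.5% in the control pool, against 0.965% and 1.36% of those more than 2-fold above it.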

Other observations

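Solute carriers other than Slc6a6 were called at smaller sizes. Slc38a2, a sodium-coupled amino acid transporter, had 210 and 170 units in the 10% arrays at 1 month, against 92.7 and 89.0 in the control arrays (log2 difference 1.05). Slc25a10, the mitochondrial dicarboxylate carrier, had 470 and 540 units in the 10% arrays, against 260 and 224 in the control arrays (1.06). Slc16a1, a monocarboxylate transporter, had 149 and 124 units in the 10% arrays, against 278 and 290 in the control arrays (-1.06). Slc34a2, a phosphate transporter, had 21.6 and 21.1 units in the 10% arrays, against 53.9 and 54.4 in the control arrays (-1.34). Of 28 measured carriers, 2 rose and 3 fell, beside 2.75% and 2.62% of all genes, with a median of 0.14. With the signals as deposited 4 were called higher and 2 lower.

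Single genes of other lists were called as well. Gys2, the liver glycogen synthase, had 156 and 160 units in the 10% arrays, against 83.1 and 63.0 in the control arrays (1.13). Sgk1, a kinase induced by glucocorticoids, had 57.7 and 67.2 units in the 10% arrays, against 130 and 137 in the control arrays (-1.10), the direction opposite to that of Mt2A in the same list. Apobec1, the editing enzyme of apolipoprotein B mRNA, had 12.9 and 11.9 units in the 10% arrays, against 26.3 and 28.0 in the control arrays (-1.13). Among genes not called, Igfbp1, a binding protein that rises in fasting, had 144 and 137 units in the 10% arrays, against 248 and 168 in the control arrays (-0.54). Alas1, the first enzyme of heme synthesis, had 884 and 763 units in the 10% arrays, against 559 and 376 in the control arrays (0.84). Igfbp2 (0.35), Hspa1a (0.13) and Psmb8 (-0.28) were not called either.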
